A study of Mus musculus with 16 samples.

Results

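A lymph node lies inside the inguinal white adipose tissue (iWAT), a subcutaneous pad, and the 6 libraries described here are those of 16 in which a lymph node transcript was counted in quantity. They were chosen by Glycam1, at more than 1 CPM (the count of a gene scaled to library size) of the column total, so their Glycam1 values are a description and no test was made on them. Glycam1 was at 401 CPM in WT 1, 227 in WT 2, 665 in Lepob/+ 3, 395 in SOD1G93A 1, 617 in SOD1G93A 2 and 506 in SOD1G93A 4. The lowest value inside the threshold was that of WT 2, and the highest outside it was 0.0604 CPM, from 3 counts in Lepob/+ 1, while the other 9 libraries had 0 counts. The 6 libraries are 3 from carriers of the SOD1G93A transgene and 3 from non-carriers, and the question was how lymphoid and fat transcripts differed between them where both held node.

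The RNA came from iWAT of females labelled C57BL/6 (both lines were kept on C57BL/6J) at 90 days of age, with 4 libraries per genotype, which were WT, Lepob/+, SOD1G93A and their double mutant SOD1G93A-Lepob/+. SOD1G93A mice carried many copies of a human SOD1 gene with its human promoter, mutated as in familial amyotrophic lateral sclerosis. In Lepob/+ mice 1 allele of the leptin gene Lep was the ob null allele. The 3 rich carriers were all SOD1G93A without the ob allele, and the 3 rich non-carriers were 2 WT and 1 Lepob/+, so Lepob/+ 3 was the only library of the 6 with an ob allele. The 10 libraries poor in node transcripts were 5 carriers, of which 4 also had the ob allele, and 5 non-carriers, of which 3 had it. The fits held no term for the ob allele. The labels do not say how much of the pad or of its node went into a sample. The labels name no animal for a library, so the p-values measure the spread between these libraries.

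A lymph node is built of B cell follicles and a T cell zone on a frame of stromal cells that secrete the chemokines Ccl19, Ccl21a and Cxcl13. Lymphocytes enter it from the blood through high endothelial venules, whose cells make Glycam1, a sulphated mucin that slows passing lymphocytes. Lactating mammary epithelium also secretes Glycam1, and mammary ducts run through the inguinal pad of females. White adipocytes store triglyceride, and release leptin and adiponectin (Adipoq), while beige adipocytes burn fat through Ucp1. Bulk RNA mixes all these cells, so that fewer cells of a type and less RNA per cell cannot be told apart.

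The 6 libraries held 37996367 to 43903692 counts. Levels are CPM after TMM scaling over the 16 libraries, and fold changes are carriers minus non-carriers on the log2 scale from an edgeR quasi-likelihood fit of the 6 libraries alone, in which 19194 genes were tested. Mouse Sod1 was at 390, 357 and 330 CPM in WT 1, WT 2 and Lepob/+ 3, and at 373, 299 and 324 CPM in SOD1G93A 1, 2 and 4. Its difference was -0.15 (SE 0.14), and the groups overlapped. The transgene is a human sequence, so the mouse Sod1 count does not check the carrier label. Adipoq, the adipocyte hormone, ran from 1209 to 1547 CPM in the 6 libraries.

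Node content was alike but not equal in the groups. The stromal chemokine Ccl21a, which guides T cells, was at 232, 205 and 307 CPM in WT 1, WT 2 and Lepob/+ 3, and at 233, 368 and 275 CPM in SOD1G93A 1, 2 and 4. The mean log2 CPM of 8 lymph node stroma genes was 4.02 to 4.41 in the 6 libraries and 0.18 to 1.51 in the 10 poor ones. It was 4.33 ± 0.13 in carriers and 4.16 ± 0.15 in non-carriers (SD, n = 3), and the groups overlapped. The mean of 6 high endothelial venule genes was 3.22 ± 0.19 in carriers and 2.96 ± 0.08 in non-carriers (SD, n = 3), with each carrier above each non-carrier. Ackr1, the atypical chemokine receptor of venules, had the smallest p of that list, at 9.22, 11.6 and 7.97 CPM in non-carriers and 12.8, 13.3 and 15.8 CPM in carriers. It was the 1 gene of the 6 whose groups were apart, against 7.33% of all genes apart with carriers above. The list median log2 fold change was 0.06, and -0.005 without SOD1G93A 2. The poor libraries had Ackr1 at 13.5 to 28.4 CPM, which venules of other kinds also express, and the sulphotransferase Chst4, an enzyme of these venules, at 0 counts in all 10. In the rich libraries Chst4 overlapped, at 2.72, 1.66 and 5.93 CPM in non-carriers and 2.77, 4.79 and 3.65 CPM in carriers.

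Single libraries stood apart for other tissue, and list medians that moved most with 1 of them are given with and without it. SOD1G93A 2 and 4 held more skeletal muscle transcripts than the other 4, Lepob/+ 3 more of the thermogenic adipocyte genes, WT 2 more macrophage and fewer lipogenic transcripts, and SOD1G93A 2 more lymphocyte and interferon response transcripts. The median log2 fold change changed sign when 1 library was left out in 22 of 38 gene lists.

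**Figure D1:**
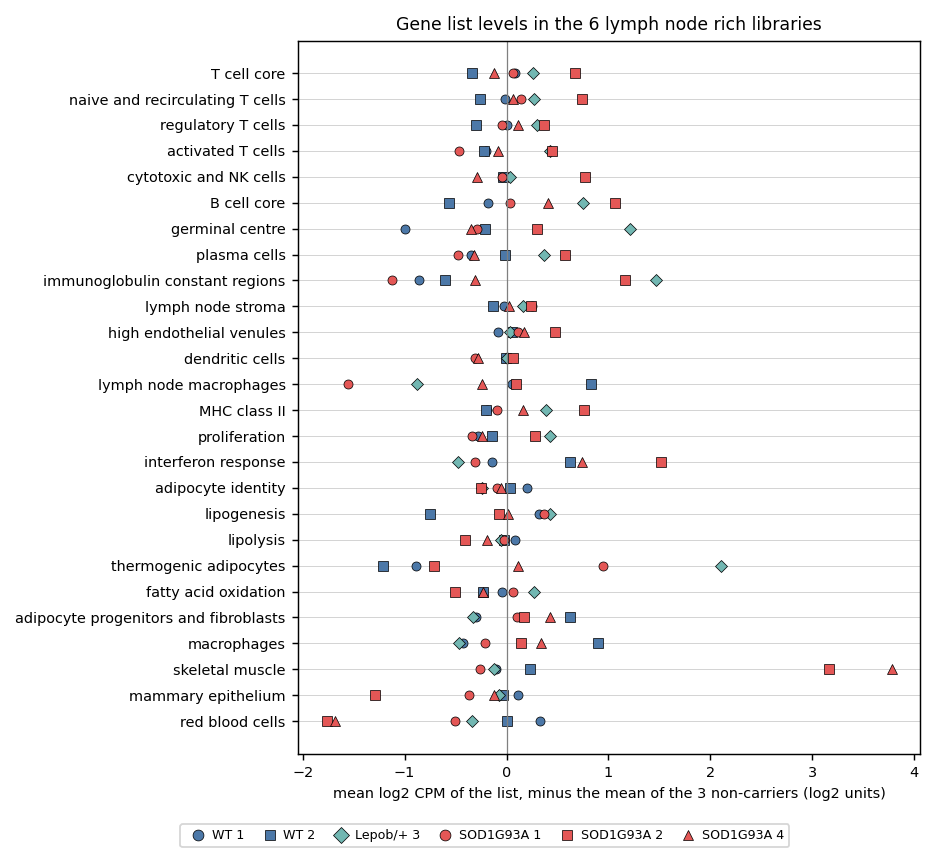
Each point is the mean log2 CPM of a gene list in 1 library, minus the mean of the 3 non-carriers, in log2 units on the x axis, with 26 lists in rows. Blue points are WT, green diamonds Lepob/+ 3 and red points SOD1G93A carriers. In all rows but 3 the red points overlap the others. The mean of the high endothelial venule genes lay above all non-carriers in each carrier, though Ackr1 was the 1 gene of the 6 apart. Of all genes tested, 7.33% were apart with carriers above. The means of red blood cell and mammary epithelium genes lay below all non-carriers. Skeletal muscle genes lay far to the right in SOD1G93A 2 and 4 alone.

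Across all genes, 5 passed an adjusted p under 0.05 (edgeR quasi-likelihood test, Benjamini-Hochberg), which is 0.026% of those tested. Gm26712, Utrn and Pum2 rose in carriers (0.0156%), and Mib1 and Penk fell (0.0104%). At an unadjusted p under 0.05 there were 397 genes higher (2.07%) and 533 lower (2.78%), 4.85% in all. The 3 carriers did not overlap the 3 non-carriers in 1407 genes with carriers above (7.33%) and 840 with carriers below (4.38%), together 11.7%. The median log2 fold change over all genes was 0.01, with 52.7% above 0 and 47.3% below. None of the 5 genes was in the lymphoid, fat or other gene lists.

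Gm26712 (ENSMUSG00000097656), an annotated pseudogene at chr6:57689433-57689649 on the minus strand of GRCm38, was at 0.0619, 0.0683 and 0.0729 CPM in WT 1, WT 2 and Lepob/+ 3. It was at 7.48, 6.66 and 6.53 CPM in SOD1G93A 1, 2 and 4, a log2 difference of 6.58 (SE 0.22, edgeR adjusted p = 0.000714) that rests on a few counts in each non-carrier and is no bound. It overlaps Pyurf on the same strand, so that reads of the pair may be split between them. Pyurf, which encodes a small mitochondrial protein, was at 19.5, 15.3 and 30.7 CPM in non-carriers and at 14.1, 11.6 and 13.8 CPM in carriers (-0.76, SE 0.26, unadjusted p = 0.0255). Over all 16 libraries Gm26712 had 2 levels, 0.0619 to 0.0749 CPM in 4 libraries and 6.32 to 12.3 CPM in 12. The fourth low library was a poor carrier, SOD1G93A-Lepob/+ 2, and all 5 poor non-carriers were high.

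Utrn (ENSMUSG00000019820) encodes utrophin, the relative of dystrophin, and was at 49.1, 43.3 and 48.2 CPM in non-carriers and 115, 124 and 120 CPM in carriers. Its difference was 1.31 (SE 0.09, edgeR adjusted p = 0.0168). Pum2 (ENSMUSG00000020594), an RNA-binding repressor of translation, was at 51.0, 54.0 and 57.9 CPM in non-carriers and 127, 146 and 135 CPM in carriers, a difference of 1.28 (SE 0.09, edgeR adjusted p = 0.0168). Both separated the groups by more than the spread within each. Over the 16 libraries Utrn again had 2 ranges, 38.8 to 68.4 CPM in 9 libraries and 112 to 154 CPM in 7, and Pum2 had 35.4 to 57.9 CPM in 7 and 98.3 to 146 CPM in 9.

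Mib1 (ENSMUSG00000024294), the ubiquitin ligase that lets Notch ligands signal, was at 40.7, 48.1 and 48.7 CPM in non-carriers and 7.50, 8.38 and 9.40 CPM in carriers. It fell by 2.48 on the log2 scale (SE 0.13, edgeR adjusted p = 0.00598). It overlaps the microRNA host transcript Mir133a-1hg on the other strand, and since the strand setting of the counting is not stated, reads of the pair may be mixed. The 2 levels of Mib1 over the 16 libraries were 6.56 to 13.1 CPM in 10 and 40.7 to 68.1 CPM in 6. Penk (ENSMUSG00000045573), the precursor of the enkephalin opioid peptides, was at 36.8, 38.0 and 41.9 CPM in non-carriers and 14.7, 13.1 and 16.1 CPM in carriers, and fell by 1.45 on the log2 scale (SE 0.12, edgeR adjusted p = 0.0454). It kept the groups apart in all 6 libraries, and in the poor ones it was at 14.1 to 46.8 CPM.

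The 10 poor libraries did not repeat the split of the 5 genes. Of the 5 poor carriers 4 were double mutants, so low node content and the double mutation cannot be told apart in any rich and poor comparison. A poor carrier lay on the side of the rich carriers in 4 of 5 libraries for Gm26712, 1 for Utrn, 4 for Pum2, 4 for Mib1 and 1 for Penk, 14 of 25 values in all. The poor non-carriers lay on that same side in 15 of 25 values, 5 of 5 for Gm26712 and 3 of 5 for Mib1. The widest gap between neighbouring libraries, with at least 3 libraries on each side, was 6.22 log2 units for Gm26712, 1.64 for Mib1, 0.76 for Pum2, 0.71 for Utrn and 0.42 for Penk, against a median of 0.16 over 12590 genes of mean CPM 5 or more. A gap of 1 log2 unit or more was found in 3.56% of those genes. What sets a library to the low or the high level was not tested.

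**Figure D2:**
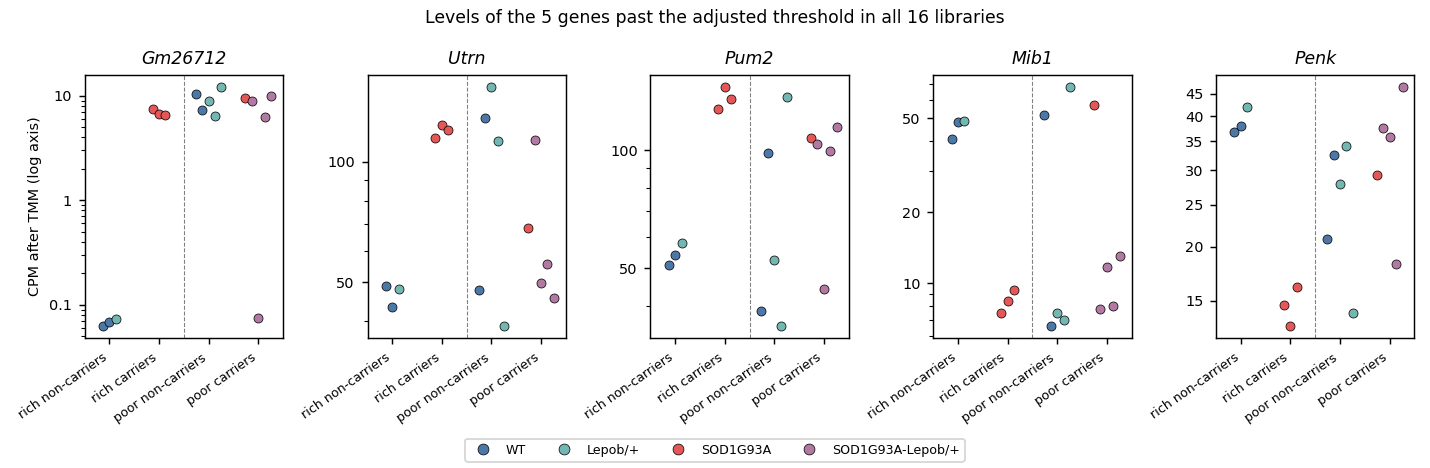
CPM after TMM (log y axis) of Gm26712, Utrn, Pum2, Mib1 and Penk in all 16 libraries, by rich and poor node content and carrier status on the x axis, 1 point per library coloured by genotype. The rich groups are apart in each panel, while in the poor groups each gene but Gm26712 has both carriers and non-carriers on either side, as with Mib1 at 6.56 to 68.1 CPM.

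With edgeR the transgene difference itself was not shown to differ between rich and poor libraries, while DESeq2 called a few genes. In a fit of all 16 libraries, 0 of 20157 genes passed the adjusted threshold for the difference (edgeR quasi-likelihood interaction, smallest adjusted p = 0.471). At an unadjusted p under 0.05 there were 1089 (5.4%). DESeq2 on the 16 libraries called 15, with Gm26712, Vps11 and Penk among them. For Penk the rich minus poor difference was -1.78 (SE 0.41, edgeR unadjusted p = 0.00058). For Vps11, a subunit of the endosomal tethering complexes, it was 0.91 (SE 0.15, edgeR unadjusted p = 2.69e-05). Vps11 was at 44.1, 44.0 and 48.5 CPM in rich non-carriers and 62.7, 66.4 and 65.0 CPM in rich carriers, but at 64.0 to 69.8 CPM in the 5 poor non-carriers. In the poor carriers Vps11 was at 65.6 CPM in SOD1G93A 3 and 45.6 to 49.5 CPM in the 4 double mutants, so the poor difference had the opposite sign (-0.40, SE 0.09, edgeR adjusted p = 0.448). Among the poor libraries alone, 0 genes passed, with 7.02% at an unadjusted p under 0.05 and 0.585% not overlapping. The poor non-carriers included Lepob/+ 4, with 262700 CPM of muscle genes, and WT 3, with 6815 CPM, and Lepob/+ 4 held the highest Mib1 and the lowest Utrn of the 16. Without Lepob/+ 4 the rich minus poor difference again gave 0 calls with edgeR, and 1085 genes at an unadjusted p under 0.05. Of the 930 genes at an unadjusted p under 0.05 in the rich libraries, 41.1% had the same direction in the poor ones, against 47.8% of all genes.

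Further genes stood next in order without passing the adjusted threshold. Cald1, the smooth muscle regulator caldesmon, was at 45.0, 57.6 and 39.7 CPM in non-carriers and 140, 126 and 130 CPM in carriers (1.43, SE 0.16, edgeR adjusted p = 0.201). Rnf26, a ubiquitin ligase of the endoplasmic reticulum, was at 32.3, 31.5 and 30.0 CPM in non-carriers and 13.1, 9.42 and 9.16 CPM in carriers (-1.61, SE 0.17, edgeR adjusted p = 0.172). For Cald1 the 5 poor non-carriers, at 87.0 to 173 CPM, sat on the side of the rich carriers, and for Rnf26 all 10 poor libraries did. Ptms, the acidic nuclear protein parathymosin, was at 195, 204 and 195 CPM in non-carriers and 121, 109 and 119 CPM in carriers (-0.81, SE 0.10, edgeR adjusted p = 0.245). Txnl4a, a component of the spliceosome, was at 6.36, 8.15 and 8.79 CPM in non-carriers and 16.5, 16.8 and 16.2 CPM in carriers (1.05, SE 0.14, edgeR adjusted p = 0.483). DESeq2 on the 6 libraries called these 4 genes among 60, with 28 higher and 32 lower. The 60 also held the dendritic cell gene Clec9a and the muscle genes Pvalb and Tnnc2.

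T cell transcripts overlapped between the groups. In a list of 20 T cell genes 0 passed any threshold, 19 were above 0 and 1 below, and the median was 0.19. Cd3e, a chain of the T cell receptor complex, was at 69.3, 49.0 and 72.2 CPM in WT 1, WT 2 and Lepob/+ 3, and at 61.7, 97.9 and 53.7 CPM in SOD1G93A 1, 2 and 4. SOD1G93A 2 was the highest library for all 20 genes and WT 2 the lowest for 18. Without SOD1G93A 2 the median was -0.04. Il7r, the receptor of the T cell survival factor interleukin 7, had the smallest p of the list, with 61.9, 43.1 and 67.4 CPM in non-carriers and 54.7, 113 and 75.7 CPM in carriers. Cd8a, the coreceptor of killer T cells, was the member below 0, with a difference of -0.05 (SE 0.21).

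Genes of naive and recirculating T cells gave a median of 0.29 over 7 members, with the same order of libraries: SOD1G93A 2 was the highest and WT 2 the lowest for all 7. Without SOD1G93A 2 the median was 0.00. Klf2, the factor that keeps T cells circulating, was at 104, 95.1 and 114 CPM in non-carriers and 128, 153 and 120 CPM in carriers (0.31, SE 0.12, unadjusted p = 0.0353). Its target S1pr1, the receptor for lymph node exit, was at 137, 134 and 158 CPM in non-carriers and 151, 196 and 191 CPM in carriers (0.29, SE 0.13). Both genes are also made by endothelium, and the poor libraries held 56.7 to 103 CPM of Klf2 and 62.9 to 149 CPM of S1pr1.

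Regulatory, activated and cytotoxic T cell lists had medians of 0.08, -0.11 and 0.13 over 7, 9 and 11 genes tested. Each changed sign without 1 library: the regulatory median was -0.05 without WT 2, the activated 0.21 without Lepob/+ 3 and the cytotoxic -0.22 without SOD1G93A 2. Foxp3, the defining factor of regulatory T cells, was at 9.41, 5.67 and 15.2 CPM in non-carriers and 10.5, 17.5 and 12.1 CPM in carriers. Cd69, an early activation marker, was at 13.2, 8.90 and 20.8 CPM in non-carriers and 15.2, 40.7 and 17.5 CPM in carriers. Gzma, a protease of killer cells, was at 2.29, 2.71 and 1.94 CPM in non-carriers and 3.67, 7.07 and 2.03 CPM in carriers. In these 3 genes the groups overlapped, and SOD1G93A 2 held the highest value. Ifng, the interferon of activated T cells, stayed below 1 CPM in all 6 libraries.

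B cell transcripts varied more between libraries than T cell transcripts, and the groups again overlapped. All 19 genes tested were above 0, with a median of 0.42 and 0 passing any threshold. Cd79a, the signalling chain of the B cell receptor, was at 157, 119 and 298 CPM in WT 1, WT 2 and Lepob/+ 3, and at 179, 343 and 212 CPM in SOD1G93A 1, 2 and 4. SOD1G93A 2 was the highest library for 18 genes and WT 2 the lowest for all 19. Lepob/+ 3 stood above SOD1G93A 1 and 4. The median was 0.11 without SOD1G93A 2, 0.16 without WT 2 and 0.87 without Lepob/+ 3. Cr2, the complement receptor of follicular B cells, was at 25.1, 17.6 and 39.1 CPM in non-carriers and 31.6, 55.0 and 33.3 CPM in carriers (0.50, SE 0.33).

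Transcripts of responding B cells followed single libraries. Lepob/+ 3 was the highest library for 6 of the 7 germinal centre genes, and the median of that list moved from -0.26 to 0.29 without it. Rgs13, a signalling regulator of germinal centre B cells, was at 0.103, 0.228 and 3.04 CPM in non-carriers and 0.32, 0.768 and 0.139 CPM in carriers. Of 18 proliferation genes Lepob/+ 3 was the highest for 13, with a median of -0.21 that became 0.08 without it. Mki67, the marker of cycling cells, was at 21.8, 23.4 and 42.0 CPM in non-carriers and 22.1, 31.9 and 23.4 CPM in carriers.

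Several antibody genes varied between single libraries within each group. Jchain, which joins antibody multimers in plasma cells, had 181, 155 and 1144 counts in WT 1, WT 2 and Lepob/+ 3, and 131, 1757 and 157 counts in SOD1G93A 1, 2 and 4. Ighg2b was at 1.34, 2.23 and 114 CPM in non-carriers and at 1.36, 62.6 and 4.43 CPM in carriers, and Ighg2c and Ighg3 had the same pair of high libraries, Lepob/+ 3 and SOD1G93A 2. Igha, the heavy chain of mucosal antibody, was at 10.96, 9.56 and 11.03 CPM in non-carriers and at 3.15, 7.45 and 1.75 CPM in carriers (-1.41, SE 0.48, unadjusted p = 0.0249). It was the 1 of 11 constant region genes whose groups were apart, against 11.7% of all genes in either direction. The poor libraries ranged from 0.159 to 13.4 CPM of Igha. Ighm, the heavy chain of naive B cells, was at 504, 398 and 791 CPM in non-carriers and 533, 1174 and 685 CPM in carriers. Constant regions resemble each other, so their unique counts are uncertain.

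Among stromal and dendritic cell genes, Madcam1 and Clec9a were below all non-carriers in each carrier at an unadjusted p under 0.05. Madcam1, the addressin of gut and marginal sinus endothelium, was at 4.87, 3.55 and 3.94 CPM in non-carriers and 2.77, 2.64 and 2.93 CPM in carriers (-0.61, SE 0.18, unadjusted p = 0.015). Clec9a, the dead cell receptor of cross-presenting dendritic cells, was at 8.29, 8.26 and 7.70 CPM in non-carriers and 2.52, 4.45 and 3.00 CPM in carriers (-1.33, SE 0.22, unadjusted p = 0.000709, edgeR adjusted p = 0.900). DESeq2 on the 6 libraries called Clec9a. Xcr1, another receptor of the same cells, was at 4.72, 3.96 and 5.76 CPM in non-carriers and at 4.41, 9.51 and 4.66 CPM in carriers, with a difference of 0.31 (SE 0.32). Of the 12 dendritic cell genes Clec9a and Il12b, a subunit of interleukin 12, were apart with carriers below, against 4.38% of all genes. The median of the list was -0.10. Tnfsf11, the RANK ligand, was at 2.83, 2.19 and 2.92 CPM in non-carriers and 20.04, 5.13 and 1.66 CPM in carriers, so 1 library set its difference of 1.73 (SE 0.84).

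Of the 4 lymph node macrophage genes, 3 were lowest in SOD1G93A 1, and Siglec1 was not. Marco, a scavenger receptor of medullary macrophages, was at 73.0, 81.9 and 48.2 CPM in non-carriers and 14.0, 62.8 and 33.2 CPM in carriers (-0.94, SE 0.51). Cd5l, a secreted macrophage protein, was at 14.2, 19.6 and 2.11 CPM in non-carriers and 1.45, 6.32 and 3.97 CPM in carriers (-1.67, SE 0.84). All 4 genes of the list were below 0, 0 had an unadjusted p under 0.05, and the median was -0.52. The 10 MHC class II genes were all above 0, with a median of 0.23 and SOD1G93A 2 the highest for all 10. Without SOD1G93A 2 the median was 0.00. H2-Aa, which presents peptides to T cells, was at 742, 892 and 976 CPM in non-carriers and 795, 1291 and 1028 CPM in carriers.

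The medians moved when the node score, the mean level of the stroma and high endothelial venule genes, was added to the fit as a covariate. The T cell median was then -0.39, that of naive T cells -0.33, of B cells -0.22, of MHC class II -0.22 and of adipocyte identity 0.105. All 5 had the opposite sign without the covariate. The score itself ran higher in carriers, 4.33 against 4.16 for the stroma genes and 3.22 against 2.96 for the venule genes. With 3 libraries a group, the fit can hardly tell the score from carrier status. What moved the signs was not tested.

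**Figure D3:**
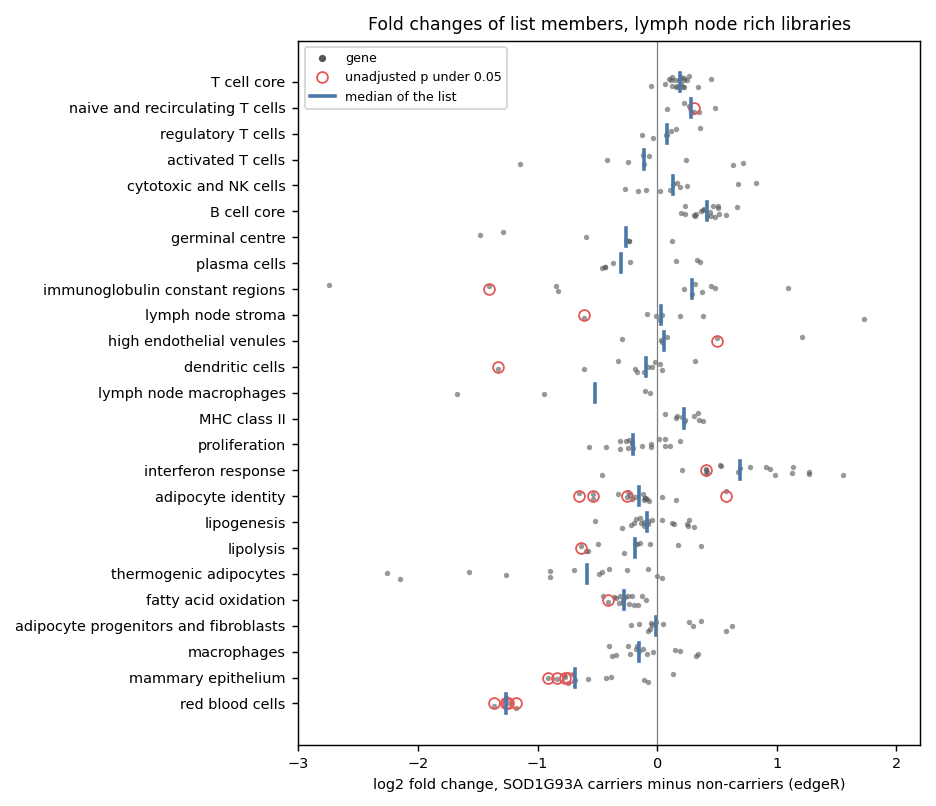
Log2 fold change (x axis, carriers minus non-carriers, edgeR) of each gene tested in 25 lists, in rows, with a bar at the median of the list and a ring around genes at an unadjusted p under 0.05. B cell genes crowd around 0.42 and red blood cell genes around -1.26, and rings are few elsewhere. Skeletal muscle is left out for its range.

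Ratios within a library set one cell type against another. Some of their genes are also made outside the node, as Ighm at 148 to 507 CPM in the poor libraries shows, so a ratio can still move with node content. Of 20 ratios fixed for this purpose, the 14 between lymphoid genes overlapped between the groups in every case. The B cell to T cell ratio (Cd79a over Cd3e) was 1.18, 1.28 and 2.04 log2 units in WT 1, WT 2 and Lepob/+ 3, and 1.53, 1.81 and 1.98 in SOD1G93A 1, 2 and 4. Its difference was 0.27 (two-sided exact permutation p = 0.4). The CD4 to CD8 ratio was -0.39, -0.54 and -0.23 in non-carriers and 0.02, -0.09 and -0.24 in carriers (0.28, exact permutation p = 0.2). Foxp3 over Cd3e was -2.88, -3.11 and -2.24 in non-carriers and -2.56, -2.49 and -2.14 in carriers (0.35, exact permutation p = 0.3). A comparison of 3 with 3 libraries cannot give a p under 0.1, and the smallest adjusted p over the 20 ratios was 0.941.

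Lepob/+ 3, the non-carrier with an ob allele, lay with or above the carriers in several of these ratios. Without it, 7 of the 20 ratios were apart, all with carriers above the 2 WT libraries. They were B cell to T cell, CD4 to CD8, Foxp3 to Cd3e, IgD to IgM, Chst4 to Cd3e, Lep to Adipoq and Ucp1 to Adipoq. Several of them share Cd3e or Adipoq, so they are not separate results. Leaving out a library can only add to the ratios apart. IgD over IgM (Ighd over Ighm), which is high in naive B cells, was -1.11, -1.18 and -0.90 in WT 1, WT 2 and Lepob/+ 3 and -0.96, -1.04 and -0.94 in carriers. Leaving out any other library gave 1 to 3 ratios apart. Stromal ratios did not separate the groups with all 6 libraries: Ccl19 over Cd3e was -0.52, -0.46 and -0.53 in non-carriers and -0.66, -0.78 and -0.27 in carriers.

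**Figure D4:**
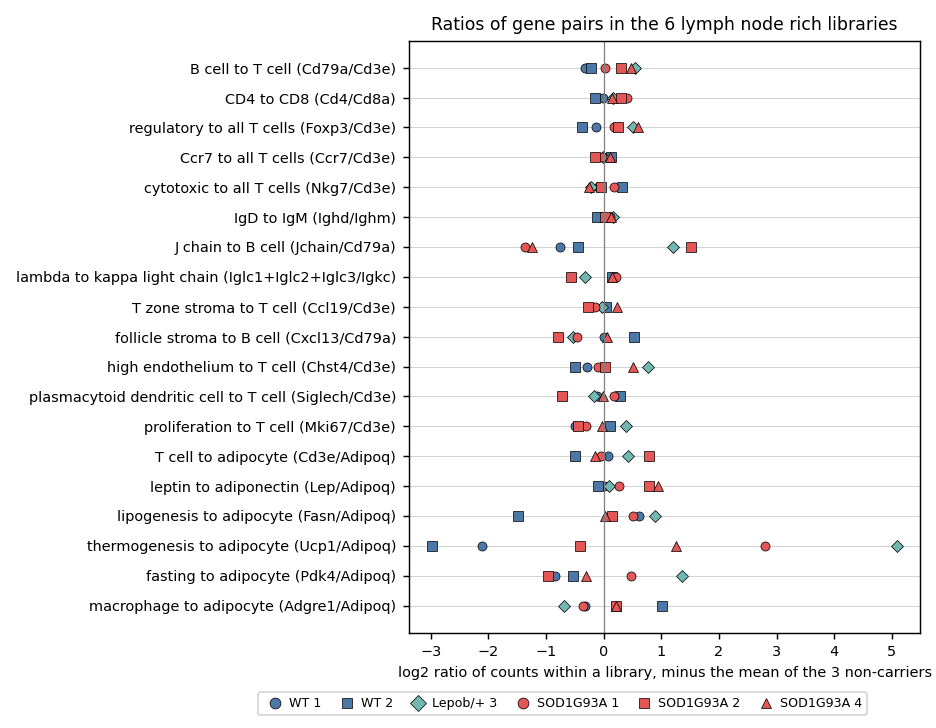
Log2 ratio of the counts of 2 genes within a library, minus the mean of the 3 non-carriers (x axis, log2 units), for 19 of the 20 ratios in rows. Blue is WT, green Lepob/+ 3 and red the carriers. The leptin to adiponectin row is the 1 in which all red points, at 0.27, 0.79 and 0.94, lie to the right of the others, while the J chain and Ucp1 rows span several units within each group.

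Interferon response genes were the lymphoid-related list with the highest median, 0.69 over 19 genes, 18 of them above 0. Ifit1, an interferon-induced RNA sensor, was at 19.6, 35.9 and 9.98 CPM in WT 1, WT 2 and Lepob/+ 3, and at 19.5, 91.8 and 53.2 CPM in SOD1G93A 1, 2 and 4. SOD1G93A 2 was the highest library for 17 genes and Lepob/+ 3 the lowest for 15. The median was 0.24 without SOD1G93A 2, and SOD1G93A 1 alone against the non-carriers gave -0.34. Cxcl9, a chemokine induced by interferon gamma, was the 1 gene apart, at 42.5, 43.7 and 41.0 CPM in non-carriers and 47.8, 69.4 and 56.9 CPM in carriers (0.41, SE 0.13, unadjusted p = 0.0195). Of all genes tested, 7.33% were apart with carriers above. The poor libraries also varied, with Ifit1 at 20.04 to 118 CPM.

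In the fat compartment, leptin alone among the genes set over Adipoq separated the groups in both its level and its ratio. Most other fat genes were not set in a ratio. Lep was at 208, 202 and 181 CPM in WT 1, WT 2 and Lepob/+ 3, and at 242, 307 and 360 CPM in SOD1G93A 1, 2 and 4 (0.58, SE 0.16, unadjusted p = 0.0109). All 3 carriers were above all 3 non-carriers, the Lepob/+ library being the lowest. Lep over Adipoq was -2.82, -2.93 and -2.74 log2 units in non-carriers and -2.56, -2.04 and -1.89 in carriers, a difference of 0.67 (exact permutation p = 0.1, the smallest possible, adjusted p = 0.941 over 20 ratios). The 10 poor libraries had higher Lep, 447 to 1843 CPM, and there the carrier difference of Lep was 0.63 (SE 0.29, edgeR adjusted p = 0.695), with overlap. The rich minus poor difference for Lep was -0.01 (SE 0.47).

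Most other adipocyte genes were below 0. Of 18 adipocyte identity genes 15 were below 0, with a median of -0.15, and 4 had an unadjusted p under 0.05, of which Lep was higher. Over all genes 4.85% had such a p. Cfd, the complement factor adipsin, was at 5661, 5353 and 4599 CPM in non-carriers and 3947, 3039 and 4094 CPM in carriers (-0.53, SE 0.20, unadjusted p = 0.0315). Pparg, the master factor of adipocytes, was at 120, 114 and 101 CPM in non-carriers and 98.8, 95.0 and 96.3 CPM in carriers (-0.25, SE 0.10, unadjusted p = 0.0471). Cidec, which fuses lipid droplets, was at 1908, 1980 and 1142 CPM in non-carriers and 1222, 921 and 1143 CPM in carriers (-0.66, SE 0.26, unadjusted p = 0.041), so that Lepob/+ 3 lay with the carriers.

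Lipolysis genes gave a median of -0.18 over 11 genes. Pnpla2, the triglyceride lipase ATGL, was at 1717, 1570 and 1384 CPM in non-carriers and 1232, 839 and 1014 CPM in carriers (-0.64, SE 0.19, unadjusted p = 0.015). Its inhibitor G0s2 was at 56.4, 76.3 and 59.3 CPM in non-carriers and 96.6, 81.5 and 77.2 CPM in carriers (0.37, SE 0.16). Both were apart between the groups, in opposite directions, and were the only genes of the 11 that were apart. Of all genes tested, 7.33% were apart with carriers above and 4.38% with carriers below. Adrb3, the beta adrenergic receptor of adipocytes, was at 534, 517 and 349 CPM in non-carriers and 416, 293 and 257 CPM in carriers (-0.58, SE 0.25), with overlap.

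All 16 fatty acid oxidation genes were below 0, with a median of -0.28 and 1 gene, Eci1, at an unadjusted p under 0.05. Over all genes 4.85% had such a p. Eci1, a mitochondrial enoyl-CoA isomerase, was at 73.8, 64.7 and 81.6 CPM in non-carriers and 65.0, 46.8 and 58.5 CPM in carriers (-0.41, SE 0.16, unadjusted p = 0.0417). SOD1G93A 2 was the lowest library for 14 of the 16 and Lepob/+ 3 the highest for 12. The median was -0.13 without SOD1G93A 2 and -0.12 without Lepob/+ 3. Thermogenic genes depended on Lepob/+ 3 most of all. Ucp1, the uncoupling protein of heat-producing adipocytes, was at 2.56, 1.48 and 313 CPM in WT 1, WT 2 and Lepob/+ 3, and at 75.6, 7.23 and 24.1 CPM in SOD1G93A 1, 2 and 4. Lepob/+ 3 was the highest for 12 of 14 genes, and the median of -0.59 became 1.03 without it.

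Lipogenesis genes did not separate the groups, with a median of -0.09 and 0 of 20 at an unadjusted p under 0.05. Fasn, fatty acid synthase, was at 13320, 3280 and 13320 CPM in WT 1, WT 2 and Lepob/+ 3, and at 12100, 8287 and 8090 CPM in SOD1G93A 1, 2 and 4. WT 2 was the lowest library for 15 of the 20 genes, and the median without it was -0.25. It was above 0 without Lepob/+ 3 (0.145), WT 1 (0.07) or SOD1G93A 2 (0.01). WT 2 was also the highest for 13 of 15 macrophage genes and 10 of 13 fibroblast genes. Adgre1, the macrophage marker F4/80, was at 41.7, 111 and 26.6 CPM in non-carriers and 39.3, 51.9 and 54.4 CPM in carriers. Without WT 2 the macrophage median moved from -0.15 to 0.53 and the fibroblast median from -0.01 to 0.47.

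**Figure D5:**
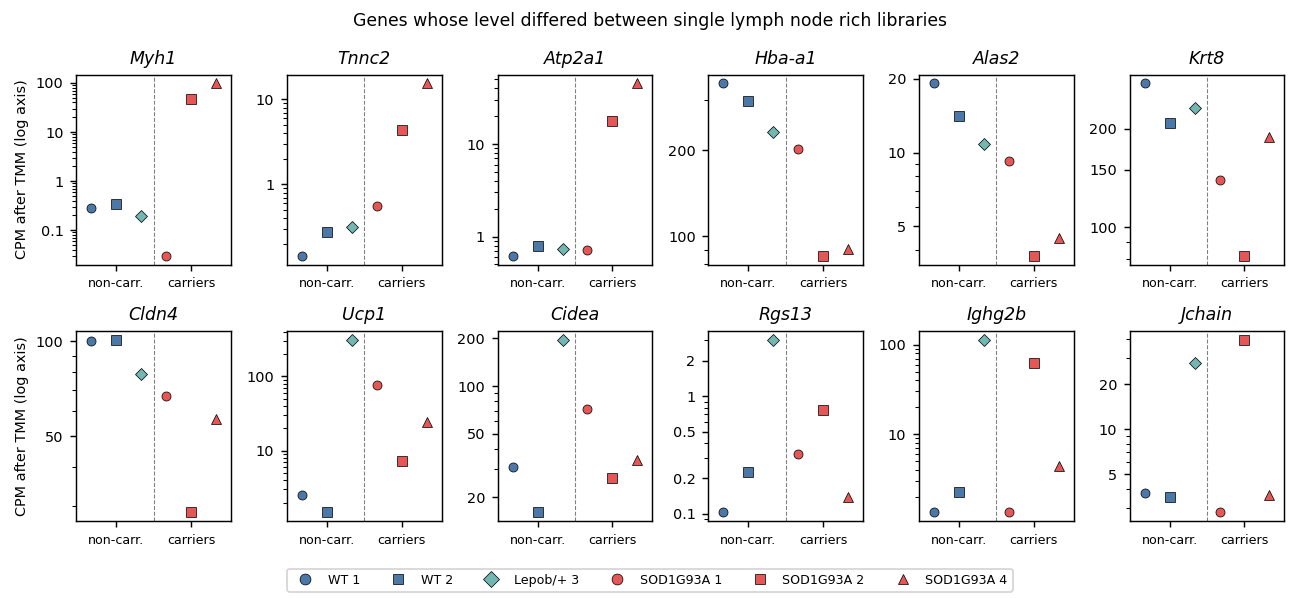
CPM after TMM (log y axis) of 12 genes in the 3 non-carriers and 3 carriers on the x axis, 1 point per library. Myh1, Tnnc2 and Atp2a1 were high in SOD1G93A 2 and 4 alone, Hba-a1 and Alas2 lower in all carriers, Ucp1 and Cidea highest in Lepob/+ 3, and Ighg2b and Jchain high in Lepob/+ 3 and SOD1G93A 2. Myh1 had 0 counts in SOD1G93A 1, drawn at 0.03 CPM.

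Red blood cell genes were lower in the carriers as a group. All 5 genes of the list had an unadjusted p under 0.05 and were apart between the groups, with a median of -1.26, and 0 passed the adjusted threshold. Of all genes tested, 2.78% were lower at that p and 4.38% were apart with carriers below. Hba-a1, an alpha globin, was at 343, 297 and 232 CPM in WT 1, WT 2 and Lepob/+ 3, and at 202, 85.5 and 90.2 CPM in SOD1G93A 1, 2 and 4 (-1.25, SE 0.38, unadjusted p = 0.015). Alas2, the haem synthesis enzyme of erythroid cells, was at 19.2, 14.1 and 10.9 CPM in non-carriers and 9.27, 3.79 and 4.50 CPM in carriers (-1.37, SE 0.40, unadjusted p = 0.0134). The median was -1.83 to -1.03 when 1 library was left out, and -0.54 for SOD1G93A 1 alone. In the poor libraries it was 0.24. The globin genes are near-identical pairs, so their unique counts are uncertain, while Alas2 has no such copy.

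Epithelial genes of the mammary duct were also lower, with 12 of 13 below 0, a median of -0.69, 4 at an unadjusted p under 0.05 and 5 apart. Over all genes, 2.78% were lower at that p and 4.38% were apart with carriers below. Krt8, a keratin of luminal cells, was at 275, 209 and 232 CPM in non-carriers and 139, 81.8 and 189 CPM in carriers (-0.84, SE 0.31, unadjusted p = 0.0344). Cldn4, a tight junction protein, was at 100, 101 and 78.9 CPM in non-carriers and 67.4, 28.8 and 56.8 CPM in carriers (-0.91, SE 0.32, unadjusted p = 0.0286). SOD1G93A 2 was the lowest for 12 of the 13, and the median was -0.38 without it. With the node score as a covariate it was -0.08. The poor libraries had Krt8 at 91.6 to 317 CPM with Glycam1 at 0 to 3 counts.

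Skeletal muscle transcripts marked 2 of the 3 carriers. Myh1, a fast myosin, was at 0.289, 0.341 and 0.194 CPM in non-carriers, at 47.5 and 98.7 CPM in SOD1G93A 2 and 4, and at 0 counts in SOD1G93A 1. The list median was 2.86 over 14 genes tested, 10 of them at an unadjusted p under 0.05, and SOD1G93A 1 alone gave -0.15. Of all genes tested, 2.07% were higher at that p. The summed level of all 17 muscle genes was 57.4 to 69.9 CPM in the non-carriers and SOD1G93A 1, 237 CPM in SOD1G93A 2 and 426 CPM in SOD1G93A 4. With SOD1G93A 1 as the only carrier, 0 genes passed the adjusted threshold, 583 had an unadjusted p under 0.05, and the list medians were 0.03 for T cells, -0.10 for B cells, -0.34 for interferon response and -0.01 for adipocyte identity. The part of muscle transcripts in the other differences was not tested beyond these values.

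Stress, clock and RNA lists gave small medians. They were -0.01 for cytosolic heat shock, -0.14 for the integrated stress and unfolded protein response, -0.07 for antioxidant enzymes, 0.00 for circadian clock genes and 0.10 for 30 splicing factors. The remaining medians were -0.30 for plasma cell genes, -0.24 for lymphatic endothelium, 0.29 for inflammatory cytokines, 0.07 for the glucocorticoid and fasting response, 0.11 for immediate early genes, -0.04 for Schwann cells and 0.15 for blood vessel endothelium. Of these, plasma cell genes were at 0.08 without Lepob/+ 3, lymphatic endothelium at 0.03 without SOD1G93A 4 and inflammatory cytokines at -0.18 without SOD1G93A 2. Gclc, the first enzyme of glutathione synthesis, was at 91.8, 82.2 and 96.0 CPM in non-carriers and 61.2, 56.4 and 77.0 CPM in carriers (-0.51, SE 0.15, unadjusted p = 0.0115). Rbmx, a splicing regulator, was at 50.1, 46.9 and 52.6 CPM in non-carriers and 61.4, 69.9 and 64.2 CPM in carriers (0.34, SE 0.08, unadjusted p = 0.00549). Luc7l3, which helps the spliceosome find the start of an intron, was at 79.0, 69.7 and 76.0 CPM in non-carriers and 126, 89.0 and 133 CPM in carriers (0.60, SE 0.18, unadjusted p = 0.0141). Of the 30 splicing genes 23 were above 0, and SOD1G93A 2 was the highest for 23. In that list 6 were apart with carriers above, against 7.33% of all genes. At an unadjusted p under 0.05, 2 were higher, against 2.07% of all genes. Dusp1, an early response phosphatase, was at 40.5, 40.0 and 45.9 CPM in non-carriers and 71.6, 54.3 and 57.0 CPM in carriers (0.49, SE 0.14, unadjusted p = 0.0103).

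The genes that the study names for iWAT were chosen on these samples and are no independent evidence of direction. Most are named for T cell activation. Aqp5, Itgav, Gm128, Gm4613 and Ddit4 are named as changed between Lepob/+ and WT. Of 31 such genes 30 were tested here, and 24 were above 0 and 6 below, with a median of 0.17 and 0 at an unadjusted p under 0.05. SOD1G93A 2 was the highest library for 22 and WT 2 the lowest for 22, and the median was -0.01 without SOD1G93A 2. Ccr7, the homing receptor for the node, was at 91.5, 76.1 and 103 CPM in non-carriers and 86.9, 126 and 82.6 CPM in carriers, with a difference of 0.08 (SE 0.18). Tnfrsf13c, the survival receptor of B cells, was at 26.1, 20.6 and 55.1 CPM in non-carriers and 36.3, 57.0 and 43.7 CPM in carriers. The 10 poor libraries had Ccr7 at 0.366 to 2.30 CPM and Tnfrsf13c at 0 to 1.14 CPM.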

How the data were processed

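RNA of iWAT was sequenced as read pairs. Per the labels and methods, the authors filtered reads with fastp (Phred 30, minimum length 30), mapped them by HISAT2 2.1.0 to the mm10 (GRCm38) genome, and made gene counts from unique alignments using featureCounts 2.0.2. The deposited values are raw counts for 54752 Ensembl gene IDs, of which 54723 were paired with a symbol. The strand setting and annotation release are not given in the sources used here. The labels name a NEBNext Ultra kit, the methods a TruSeq Stranded mRNA kit.

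Libraries with Glycam1 above 1 CPM of the column total were kept. Genes were filtered by filterByExpr (minimum count 10, minimum total 15), scaled by TMM and tested with a robust quasi-likelihood F test in edgeR 4.0.16 (R 4.3.3) with carrier status as the only term, two-sided, with Benjamini-Hochberg adjustment over 19194 genes. A second fit of 16 libraries tested the rich minus poor difference. Mean log2 CPM used a prior count of 1 and ratios one of 0.5. Each ratio had a two-sided exact permutation test over 6 libraries. A count of 0 allows up to 3 counts, a limit that covers counting error only. Alternatives were DESeq2 size factors, TMM factors computed without lymphoid genes, an unfiltered table, a filter of 1 CPM in 3 libraries, DESeq2 1.42.0, voom of limma 3.58.1, a node score covariate, a replicate block and leaving out each library. The procedure was tested on simulated counts.

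The 6 libraries, 38 lists with 476 genes and 20 ratios were chosen with earlier results of these data known. Genes named are up to 3 per list with the smallest p, the 10 higher and 10 lower of smallest p, the ratio genes and those named by the study. Glycam1, Sod1, Pyurf, Xcr1, Ighg2b, Ighg2c, Ighg3, Pparg, Cidea and Siglec1 were named beside this rule after their values were seen, as was the widest gap between libraries. The replicate numbers 1 and 2 are shared by SOD1G93A and WT. The correlations of their residuals were 0.10 and -0.08, so the numbers were not treated as pairs. Results of a few genes, 1 ratio among them, are not reported here.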

Additional observations from a re-analysis of the deposited data

How the results depend on the processing

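The 5 genes called with edgeR were 4 with DESeq2 size factors, without Penk, 60 with DESeq2 as the test, 1 (Gm26712) with the node score as a covariate and 0 when the spread was estimated over all 16 libraries. At an unadjusted p under 0.05, the covariate gave 548 genes higher and 332 lower, against 397 and 533. Leaving out 1 library gave 2 to 15 calls. They were 2 without WT 1, 12 without WT 2, 3 without Lepob/+ 3, 15 without SOD1G93A 1, 11 without SOD1G93A 2 and 2 without SOD1G93A 4, and Gm26712 and Mib1 were among them each time. SOD1G93A 1 alone against the 3 non-carriers, a setting chosen after seeing the data in which the lone carrier is assumed to vary like the others, gave 0 calls and 583 genes at an unadjusted p under 0.05, with log2 fold changes of -6.66 for Myh1 and -0.000792 for Atp2a1. The rich minus poor difference gave 0 calls with edgeR and 15 with DESeq2. Ratios whose groups were apart numbered 1 to 7 when 1 library was left out, which can only add to them. The causes were not tested.

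With the replicate number as a block, 0 genes were called, and the pairing it assumes was not borne out by the residuals. With 3 libraries a group and 1 non-carrier with an ob allele, the comparison cannot tell the transgene from library differences in muscle, epithelium, blood and node that move with it.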
